A study of Homo sapiens with 6 samples.

Results

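The 35 interferon-stimulated antiviral genes described here belong to the programme that cells switch on against viruses. They were found on the arrays by their gene symbols, as the probe sets annotated to 1 symbol alone. Of the 35 genes, 34 had such a probe set, 55 probe sets in all, among 19775 genes and 54613 probe sets in the series. The transcription factor STAT2 had no probe set of its own in the annotation used and was not analysed here, and 1 probe set that IRF9 shares with another gene was left out. The rule that assigns probe sets to them uses symbols alone, but the members were chosen with earlier results of these data known. Their shares against all genes are therefore a description.

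RNA from cultured human bile duct cancer cells was measured on 6 Affymetrix arrays. KKU-100, which the labels call a poorly differentiated cholangiocarcinoma, and HuCCT1, labelled as bile duct carcinoma, were each treated with solvent, with 1 µM regorafenib (the low dose) or with 10 µM regorafenib (the high dose). Regorafenib is an oral inhibitor of several receptor and cytoplasmic kinases. Each combination of line and treatment had 1 array, so each dose was read against a single solvent array that both doses of a line share. The sample labels describe all the cells as stably transduced and kept under puromycin, without naming the construct, and the paper's text gives lower doses than the labels. The doses here are those of the labels.

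Interferons are secreted signalling proteins that bind receptors on the same or a neighbouring cell and act through JAK kinases on a complex of STAT proteins with IRF9. This complex binds the interferon-stimulated response element, a short motif near the start of the target genes. The proteins made from these genes bind viral RNA, degrade it, block its translation, hold back budding particles, or raise the sensitivity of the cell to the next signal. Several of them are also kept at a high steady level in some tumour cells that carry no virus.

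All values are linear signal intensities of 1 probe set per gene, the brightest on average of those annotated to it. Signals can be compared between arrays for 1 gene but not between genes. Median signals of the 6 arrays ran from 28.8 to 29.3, and single probe sets spanned a floor of 3.63 to 4.05 and a ceiling of 19904 to 20640. Of the 6 markers of biliary epithelium looked at, KRT8 and KRT18 were bright in both lines, but KRT19 and EPCAM were near the floor of the arrays in KKU-100. KRT19 gave 8.62 to 11.1 in KKU-100 and 7654 to 9321 in HuCCT1, and EPCAM gave 8.95 to 11.0 in KKU-100 and 6432 to 6682 in HuCCT1. KRT7 gave 917 to 1227 in KKU-100 and 10354 to 11038 in HuCCT1. SOX9 gave 546.5 to 1059 in KKU-100 and 643.5 to 1408 in HuCCT1, so the lines overlapped. Of the 6 markers, KRT19 and EPCAM alone were thus near the floor on the KKU-100 arrays, whose label is kept here.

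The start regions of the genes are shown first, because the response element joins the members to each other without use of any array value. The sequences are 300 bases long, from 250 bases before to 50 bases after a transcription start, were taken from RefSeq (GRCh38.p14), and were found for 27 of the 34 genes. The response element was searched as GAAANNGAAA and, for the other strand, TTTCNNTTTC, with overlapping matches allowed. It was present in a window of 20 of the 27 genes (74.1%), against 4.38% of the 27305 genes in the table. Counted by window, 24 of 37 (64.9%) held it, against 3.57% of 35116. OAS1, HERC6, IRF9, CMPK2, SAMD9L, IFI35 and XAF1 had no match in these windows, which says only that these letters were not found there. The start regions of 5 genes follow, with the matches in capitals. They are the neighbouring genes IFIT1, IFIT3 and IFIT5 of 1 locus, the stable and bright ISG15, and the RNA sensor IFIH1.
IFIT1 (chr10:89392373-89392672, + strand): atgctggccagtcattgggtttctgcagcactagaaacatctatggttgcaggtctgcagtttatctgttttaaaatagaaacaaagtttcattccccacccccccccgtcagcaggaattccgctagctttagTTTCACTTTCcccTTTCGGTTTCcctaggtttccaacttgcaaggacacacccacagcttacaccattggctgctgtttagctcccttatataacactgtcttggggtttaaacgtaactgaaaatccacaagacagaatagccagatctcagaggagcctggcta
IFIT3 (chr10:89332279-89332578, + strand): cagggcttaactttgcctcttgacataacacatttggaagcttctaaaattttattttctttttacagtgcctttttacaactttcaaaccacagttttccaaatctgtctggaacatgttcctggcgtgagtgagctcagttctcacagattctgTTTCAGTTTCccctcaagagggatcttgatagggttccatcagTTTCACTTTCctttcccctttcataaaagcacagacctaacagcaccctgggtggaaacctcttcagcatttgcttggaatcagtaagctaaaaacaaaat
IFIT5 (chr10:89414318-89414617, + strand): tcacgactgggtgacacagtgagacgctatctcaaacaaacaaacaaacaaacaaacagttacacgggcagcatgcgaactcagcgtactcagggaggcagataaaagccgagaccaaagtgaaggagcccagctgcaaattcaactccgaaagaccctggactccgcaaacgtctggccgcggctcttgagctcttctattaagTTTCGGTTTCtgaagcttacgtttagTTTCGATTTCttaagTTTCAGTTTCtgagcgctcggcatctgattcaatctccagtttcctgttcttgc
ISG15 (chr1:1013247-1013546, + strand): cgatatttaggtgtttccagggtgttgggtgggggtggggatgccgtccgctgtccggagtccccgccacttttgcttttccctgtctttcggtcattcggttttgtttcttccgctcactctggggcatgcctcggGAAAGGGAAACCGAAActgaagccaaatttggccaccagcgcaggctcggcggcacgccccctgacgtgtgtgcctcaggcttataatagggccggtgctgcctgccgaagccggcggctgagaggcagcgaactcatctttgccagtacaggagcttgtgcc
IFIH1 (chr2:162318635-162318934, - strand): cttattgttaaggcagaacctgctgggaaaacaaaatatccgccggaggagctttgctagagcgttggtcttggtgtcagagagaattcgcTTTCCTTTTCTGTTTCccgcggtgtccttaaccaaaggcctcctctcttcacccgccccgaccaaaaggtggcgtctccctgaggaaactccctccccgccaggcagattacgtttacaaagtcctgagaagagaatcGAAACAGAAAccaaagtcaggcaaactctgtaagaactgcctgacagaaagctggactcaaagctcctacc
IFIT1 and ISG15 each held 2 matches, which overlap in ISG15, and IFIT5 and IFIH1 held 3 each. The IFIT3 window shown is the one whose match lies nearer to its start. The 7 genes IFIT2, OAS2, OASL, MX2, USP18, IRF7 and TRIM22, had no entry in the table.

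KKU-100 cells carried far more RNA of these genes than HuCCT1 cells, whatever the treatment. Of the 34 genes, 31 were above all 3 HuCCT1 arrays on all 3 KKU-100 arrays, the exceptions being IFIT5, DTX3L and SAMD9. A level filter, a mean log2 signal at or above the 50th percentile of all probe sets, kept 33 of the 34 and dropped HERC5. RSAD2 and IFI44L passed it through KKU-100 alone. Among the genes past the filter, 30 of 33 members had all KKU-100 arrays above all HuCCT1 arrays, against 29.8% of the 12833 genes tested. In the limma fit over the 6 arrays, with treatment as a block and adjustment over all probe sets past the filter, 32 of 33 members were higher in KKU-100 at an adjusted p under 0.05, against 27.6% of all genes tested. No member was lower, against 26.1% of all genes. The median member differed by a log2 of 2.93 and the median gene tested by 0.01. Without the level filter 32 of 34 members were called, against 19% of 19775 genes, IFIT5 and DTX3L being the ones not called. The fit has 2 residual degrees of freedom and takes the 3 differently treated arrays of a line as its repeats, so its p-values measure only the spread left after a shared treatment effect, not the spread between separate cultures. HuCCT1 and KKU-100 are 1 line each, and a difference between them cannot be told apart from anything else in which these cultures differ.

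The solvent arrays alone gave the same picture. Of 33 members past the filter on these arrays, 29 were over 1.5-fold higher in KKU-100, against 22.8% of 12752 genes, and 0 were over 1.5-fold lower, against 23.9%. At a 2-fold cutoff 28 of the 33 were higher, against 13.4% of the 12752 genes. Counted over all 34 genes without a filter, 29 exceeded 2-fold, 25 exceeded 4-fold, 17 exceeded 8-fold, 9 exceeded 16-fold and 5 exceeded 32-fold. For these unfiltered counts the shares of all genes were not computed, so they only describe the members. In HuCCT1 cells HERC5, RSAD2 and IFI44L lay below the median signal on all 3 arrays, whereas no member did so on any KKU-100 array.

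**Figure D1:**
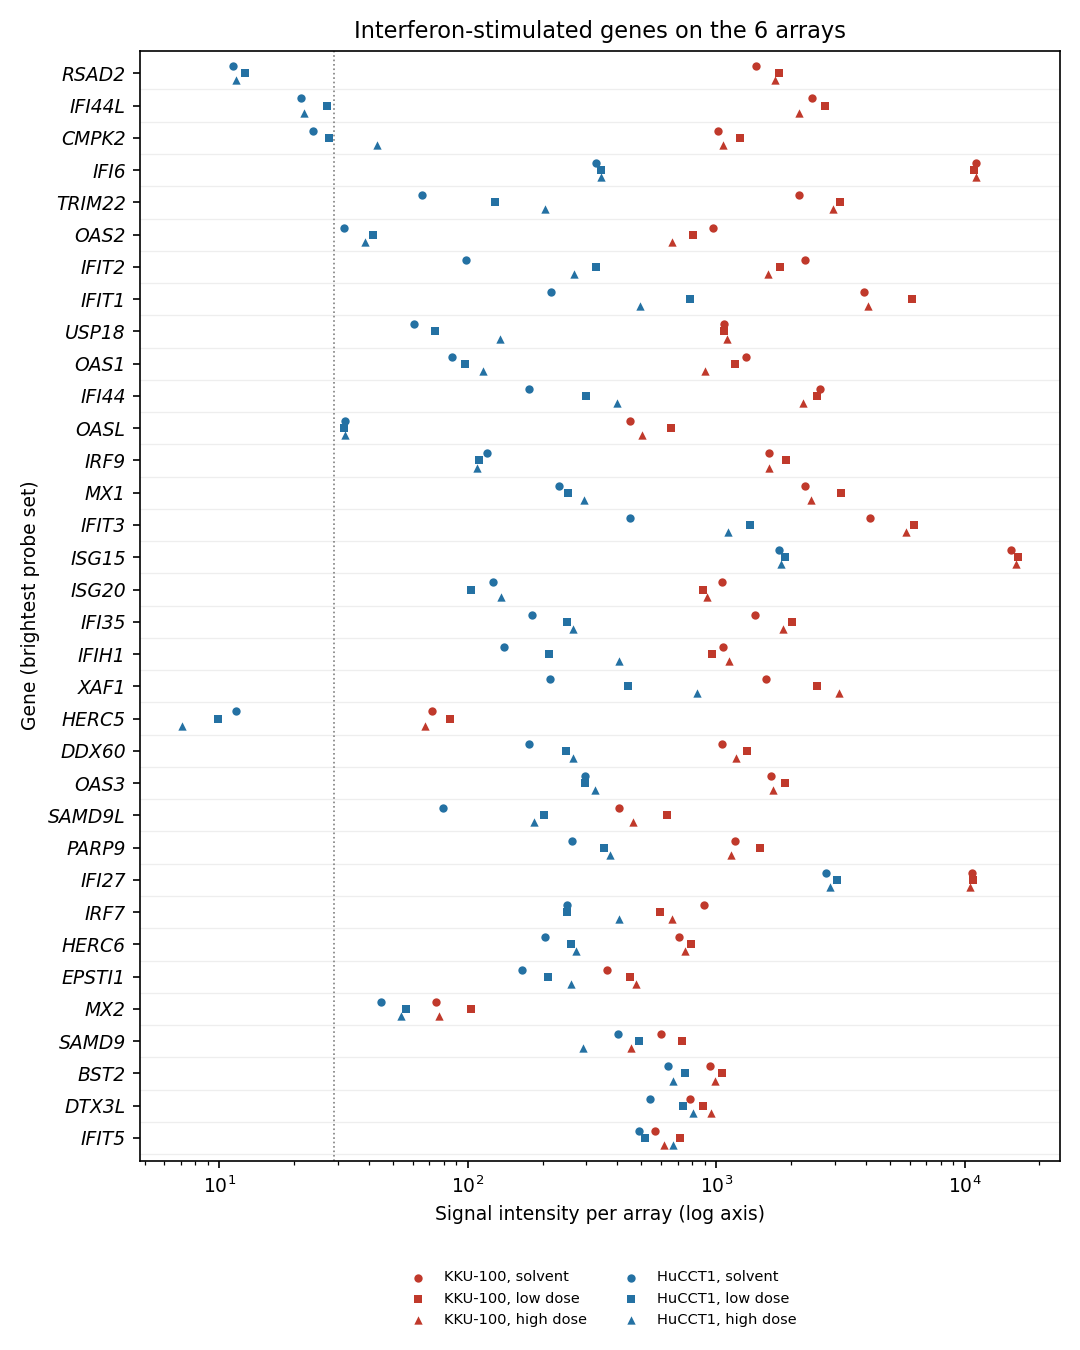
Signal intensity of the 34 genes on each of the 6 arrays (log axis, KKU-100 in red and HuCCT1 in blue, 1 point per array, no error bars because each condition has 1 array, dotted line at a signal of 29 near the array medians), ordered by the difference of the solvent arrays. RSAD2 lies at 1440 to 1782 in KKU-100 and 11.3 to 12.7 in HuCCT1, whereas the points of IFIT5 at the bottom overlap between the lines.

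In the values below, the 3 numbers of a line are its solvent, low dose and high dose arrays in that order. The differences between lines are log2 differences of KKU-100 minus HuCCT1 from the limma fit with their standard error (SE) and adjusted p.

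The IFIT proteins bind foreign RNA ends and block its translation, and their genes lie side by side. IFIT1 had signals of 3946, 6161 and 4086 in KKU-100 and 216, 787 and 492 in HuCCT1. IFIT2 had 2270, 1800 and 1617 in KKU-100 and 98.4, 329 and 268 in HuCCT1, and IFIT3 had 4167, 6263 and 5831 in KKU-100 and 450, 1367 and 1113 in HuCCT1. For these genes every KKU-100 array was above every HuCCT1 array, and in HuCCT1 both treated arrays were above the solvent array. The differences between lines were 3.41 (SE 0.25, adjusted p 0.000334) for IFIT1, 3.19 (SE 0.42, adjusted p 0.00222) for IFIT2 and 2.60 (SE 0.20, adjusted p 0.00038) for IFIT3. IFIT5 had 565, 716 and 615 in KKU-100 and 488, 518 and 670 in HuCCT1. The lines overlapped, and the difference of 0.19 (SE 0.15, adjusted p 0.346) was not called. A second IFIT5 probe set, which was not the brightest, gave 597, 1019 and 991 in KKU-100 and 210, 238 and 341 in HuCCT1, so the size of the IFIT5 difference depends on the probe set.

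The OAS enzymes make the oligoadenylates that switch on RNase L, which cuts RNA, and OASL is a relative without that activity. OAS1 had 1315, 1192 and 902 in KKU-100 and 86.4, 97.3 and 115 in HuCCT1, and OAS2 had 970, 803 and 663 in KKU-100 and 31.6, 41.4 and 38.6 in HuCCT1. OAS3 had 1662, 1892 and 1687 in KKU-100 and 295, 298 and 324 in HuCCT1, and OASL had 452, 658 and 501 in KKU-100 and 32.0, 31.8 and 32.1 in HuCCT1. All 4 were far apart between the lines, with differences from 2.51 (OAS3, SE 0.11) to 4.44 (OAS2, SE 0.20), which is a 21.7-fold level for OAS2. By their brightest probe sets, none of the 4 moved past 1.5-fold at either dose of either line. A dimmer OAS2 probe set changed by -0.74 at the high dose of KKU-100. A dimmer OAS3 probe set, below the array medians in HuCCT1, changed by 0.65 at the low dose there. The dimmer probe sets of OAS2 gave smaller differences of the solvent arrays, down to 0.95, against 4.94 for the brightest.

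MX1 and MX2 encode dynamin-like GTPases, MX1 acting on many RNA viruses and MX2 on retroviruses. MX1 had 2277, 3173 and 2413 in KKU-100 and 232, 252 and 295 in HuCCT1, and MX2 had 74.4, 103 and 76.3 in KKU-100 and 44.6, 56.3 and 53.6 in HuCCT1. The lines did not overlap for either gene, and the difference was 3.33 (SE 0.15) for MX1 and 0.71 (SE 0.13, adjusted p 0.00783) for MX2.

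ISG15 is a ubiquitin-like protein, HERC5 is the ligase that attaches it, HERC6 is a close relative of HERC5, and USP18 removes ISG15 and also damps the interferon receptor. ISG15 had 15409, 16382 and 16087 in KKU-100 and 1789, 1892 and 1825 in HuCCT1. Its difference of 3.12 had an SE of 0.04 and an adjusted p of 1.14e-05, and neither line showed a change past 1.5-fold at either dose. USP18 had 1075, 1075 and 1108 in KKU-100 and 60.7, 73.9 and 134 in HuCCT1. HERC6 had 705, 789 and 746 in KKU-100 and 204, 261 and 272 in HuCCT1. USP18 differed by 3.68 (SE 0.23) and HERC6 by 1.61 (SE 0.13). HERC5 was dim, at 72.0, 84.4 and 67.2 in KKU-100 and 11.7, 9.91 and 7.08 in HuCCT1, and differed by 2.99 with an adjusted p of 6.1e-05 when no level filter was used.

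IFIH1 encodes MDA5, a cytoplasmic sensor of long double-stranded RNA, and DDX60 is a helicase placed with this sensing pathway. IFIH1 had 1067, 959 and 1124 in KKU-100 and 140, 213 and 407 in HuCCT1. DDX60 had 1051, 1329 and 1202 in KKU-100 and 176, 248 and 266 in HuCCT1. Both were higher in KKU-100, by 2.19 (SE 0.28) for IFIH1 and 2.39 (SE 0.13) for DDX60. The dimmer IFIH1 probe sets, near or below the array medians, gave differences of the solvent arrays of 0.34 and -0.17, against 2.93 for the brightest. Of the factors that drive the programme, IRF9 joins the STAT proteins on the response element and IRF7 turns on the interferon genes. IRF9 had 1623, 1911 and 1631 in KKU-100 and 120, 111 and 109 in HuCCT1, a difference of 3.93 (SE 0.13). IRF7 had 897, 594 and 661 in KKU-100 and 252, 250 and 407 in HuCCT1, a difference of 1.26 (SE 0.23, adjusted p 0.00689). IRF9 was thus 15.2-fold higher in KKU-100, with no overlap, and did not pass 1.5-fold at either dose in either line.

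RSAD2 encodes viperin, which makes a chain-terminating nucleotide, and CMPK2, the next gene on the chromosome, supplies nucleotide triphosphates. RSAD2 had 1440, 1782 and 1725 in KKU-100 and 11.3, 12.7 and 11.7 in HuCCT1. CMPK2 had 1015, 1244 and 1067 in KKU-100 and 23.9, 27.7 and 43.3 in HuCCT1. RSAD2 showed the largest difference of the 33 members tested, 7.11 (SE 0.13, adjusted p 1.68e-05), a 138-fold level, and CMPK2 differed by 5.17 (SE 0.21). In HuCCT1 the RSAD2 signals lay below the array medians, so the size of this fold rests on a signal near background.

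IFI6, IFI27, IFI35, IFI44 and IFI44L are named for their response to interferon alone, IFI6 and IFI27 being small membrane proteins. IFI6 had 11072, 10885 and 11133 in KKU-100 and 328, 344 and 343 in HuCCT1, and IFI27 had 10711, 10818 and 10516 in KKU-100 and 2757, 3061 and 2875 in HuCCT1. These were steady over the treatments in both lines and differed between them by 5.03 (SE 0.07) and 1.88 (SE 0.05). IFI35 had 1427, 2019 and 1863 in KKU-100 and 182, 250 and 266 in HuCCT1. IFI44 had 2612, 2550 and 2238 in KKU-100 and 177, 299 and 399 in HuCCT1. Its neighbour IFI44L had 2419, 2746 and 2150 in KKU-100 and 21.2, 27.2 and 21.9 in HuCCT1, a difference of 6.70 (SE 0.13) or 104-fold, taken against HuCCT1 signals below the array medians. IFI44 and IFI35 differed by less, 3.15 (SE 0.26) and 2.93 (SE 0.11).

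PARP9 and DTX3L form a complex of a poly(ADP-ribose) polymerase family protein with a ubiquitin ligase and are encoded next to each other. PARP9 had 1186, 1503 and 1145 in KKU-100 and 262, 353 and 373 in HuCCT1, and DTX3L had 782, 885 and 955 in KKU-100 and 542, 733 and 805 in HuCCT1. PARP9 differed by 1.96 (SE 0.15), whereas DTX3L overlapped between the lines and differed by 0.35 (SE 0.11, adjusted p 0.0477, and 0.0648 without the level filter). SAMD9 and SAMD9L, also neighbours, restrict poxviruses. SAMD9 had 602, 729 and 454 in KKU-100 and 402, 487 and 291 in HuCCT1, and SAMD9L had 406, 633 and 463 in KKU-100 and 79.7, 203 and 184 in HuCCT1. SAMD9 overlapped and differed by 0.60 (SE 0.11, adjusted p 0.00756), and SAMD9L did not overlap and differed by 1.77 (SE 0.22). In both lines the SAMD9 signal was highest at the low dose and lowest at the high dose.

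The other effectors are ISG20, an exonuclease, XAF1, a partner of apoptosis inhibitors, EPSTI1, TRIM22, a tripartite motif protein, and BST2, the tetherin that holds budding viruses at the cell surface. ISG20 had 1050, 883 and 918 in KKU-100 and 127, 103 and 137 in HuCCT1. XAF1 had 1589, 2536 and 3128 in KKU-100 and 215, 440 and 840 in HuCCT1, so both lines had their highest XAF1 signal at the high dose. TRIM22 had 2158, 3161 and 2940 in KKU-100 and 65.2, 128 and 204 in HuCCT1, a difference of 4.51 (SE 0.24) or 22.7-fold. ISG20 and XAF1 differed by 2.97 (SE 0.14) and 2.44 (SE 0.20). EPSTI1 had 362, 448 and 475 in KKU-100 and 165, 211 and 261 in HuCCT1, and BST2 had 943, 1056 and 984 in KKU-100 and 638, 746 and 668 in HuCCT1. EPSTI1 and BST2 differed by 1.03 (SE 0.13) and 0.54 (SE 0.10, adjusted p 0.00669), BST2 being among the smallest called differences. A dimmer EPSTI1 probe set overlapped between the lines and gave a difference of the solvent arrays of 0.12, against 1.13 for the brightest.

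Regorafenib was compared with solvent in each line, with a gene called when 1 array lay past 1.5-fold of the other, which carries no p-value. In KKU-100, 4 of 34 members were higher at 1 µM (background 9.75% of 12694 genes) and 1 was lower (background 7.32%). At 10 µM 1 member of KKU-100 was higher (background 9.44%) and 0 were lower (background 4.86%). The median member changed by a log2 of 0.23 and 0.06 at these doses, and the median gene by 0.06 at each. In HuCCT1, 8 of the 31 members past the filter were higher at 1 µM (background 3.68% of 12789 genes) and 13 of 31 at 10 µM (background 8.23%). None was lower at 1 µM (background 3.32%) or at 10 µM (background 6.44%). There the median member changed by a log2 of 0.34 at 1 µM and 0.51 at 10 µM, and the median gene by 0.02 at both. The shares of members called in KKU-100 thus lay near or below those of all genes, and those in HuCCT1 above them.

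**Figure D2:**
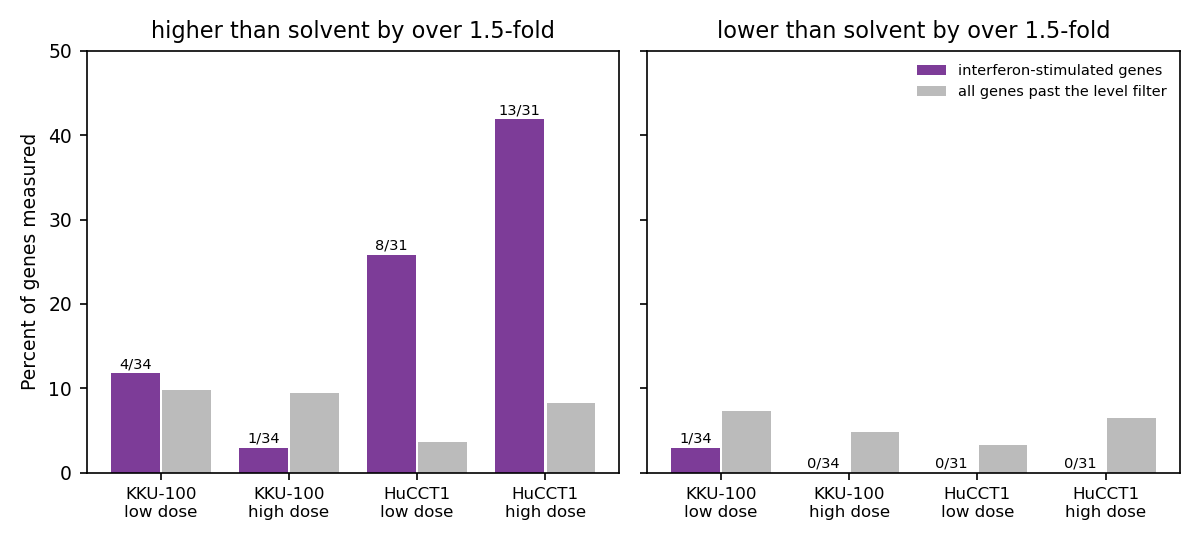
Percent of the interferon-stimulated genes (purple, number called over number measured above each bar) and of all genes past the level filter (grey) that were over 1.5-fold higher or lower than solvent, by line and dose, 1 array against 1. In HuCCT1, 25.8% of the members were higher at 1 µM and 41.9% at 10 µM, against 3.68% and 8.23% of all genes.

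In KKU-100 the 4 genes called higher at the low dose were XAF1 (log2 change 0.68), IFIT1 (0.64), SAMD9L (0.64) and IFIT3 (0.59), and XAF1 alone was higher at the high dose (0.98). The same 4 genes were among those called higher at both doses of HuCCT1, an overlap whose share over all genes was not computed. IRF7 was lower at the low dose by 0.59 on the log2 scale, just past the cutoff. By their brightest probe sets, 29 of 34 members stayed within 1.5-fold at both doses, a count that depends on the probe set chosen. Other probe sets of IFIT5 (0.77 at 1 µM, 0.73 at 10 µM) and EPSTI1 (0.96, then 0.765) were higher past 1.5-fold at both. One of IFIH1, below the array medians, was higher at 1 µM alone (0.835). Lower past 1.5-fold were those of IFIT2 (-0.998) and OAS2 (-0.74) at 10 µM, and of IFI44 at both (-0.588, then -1.46). For XAF1 the other probe sets stayed within 1.5-fold in KKU-100, with changes of 0.35 and 0.30 (1 µM), then 0.18 and 0.43 (10 µM). The dimmer SAMD9L probe sets also stayed within it under 1 µM (0.006 and 0.40). These calls of XAF1 and SAMD9L thus rest on the brightest probe set alone. The second IFIT3 probe set passed 1.5-fold under 1 µM (0.60), and IFIT1 had no other probe set. The second IFI44 probe set had 535, 356 and 194 in KKU-100 and 24.6, 23.9 and 19.7 in HuCCT1, with its lowest HuCCT1 signal at 10 µM.

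The 8 members higher at both doses of HuCCT1, by their brightest probe sets, were IFIT1, IFIT2, IFIT3, IFIH1, SAMD9L, IFI44, XAF1 and TRIM22. The share of all genes called at both doses was not computed, so this count only describes the members. USP18, DDX60, IRF7, CMPK2 and EPSTI1 were, by the same choice of probe sets, higher at the high dose alone. The largest log2 changes at the low dose were 1.87 for IFIT1, 1.74 for IFIT2, 1.60 for IFIT3 and 1.35 for SAMD9L, which changed by 1.19, 1.44, 1.31 and 1.21 at the high dose. Those 4 of the 13 were lower at the high than at the low dose, and the other 9 were higher. XAF1 changed by 1.03 at 1 µM and 1.97 at 10 µM, TRIM22 by 0.97 and 1.65, IFIH1 by 0.61 and 1.54, IFI44 by 0.76 and 1.17, and USP18 by 0.28 and 1.15. With 1 array per dose there is no spread to set these orders against. By their brightest probe sets, the remaining 18 of 31 stayed within 1.5-fold at both doses, among them ISG15, IFI6, IFI27, all 4 OAS genes and both MX genes. Dimmer probe sets of IFIT5 (0.70) and SAMD9 (-0.62) passed 1.5-fold at the high dose. Among the 13 genes called, the second IFIT2 probe set passed 1.5-fold at 1 µM (0.95) but not at 10 µM (0.405). Neither dose passed it for the dimmer IFIH1 probe sets (-0.17 and -0.12, then 0.445 and 0.55) or the second one of IFI44. A dimmer EPSTI1 probe set was higher at both doses (0.71, then 1.04). The other probe sets of IFIT3, SAMD9L and XAF1 were also higher past 1.5-fold at both.

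The 13 genes that were higher in HuCCT1 had a median solvent difference between the lines of 3.21 (1.13 to 5.41), and the 18 others one of 2.73 (0.21 to 5.08). Both sets share the HuCCT1 solvent array with the changes, so these values are a description. Of the 34 genes, IFIT5 and DTX3L alone had a HuCCT1 array that reached the KKU-100 solvent signal. Of the 9 responding genes with a start region, 6 held the response element, against 14 of 18 among the others.

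**Figure D3:**
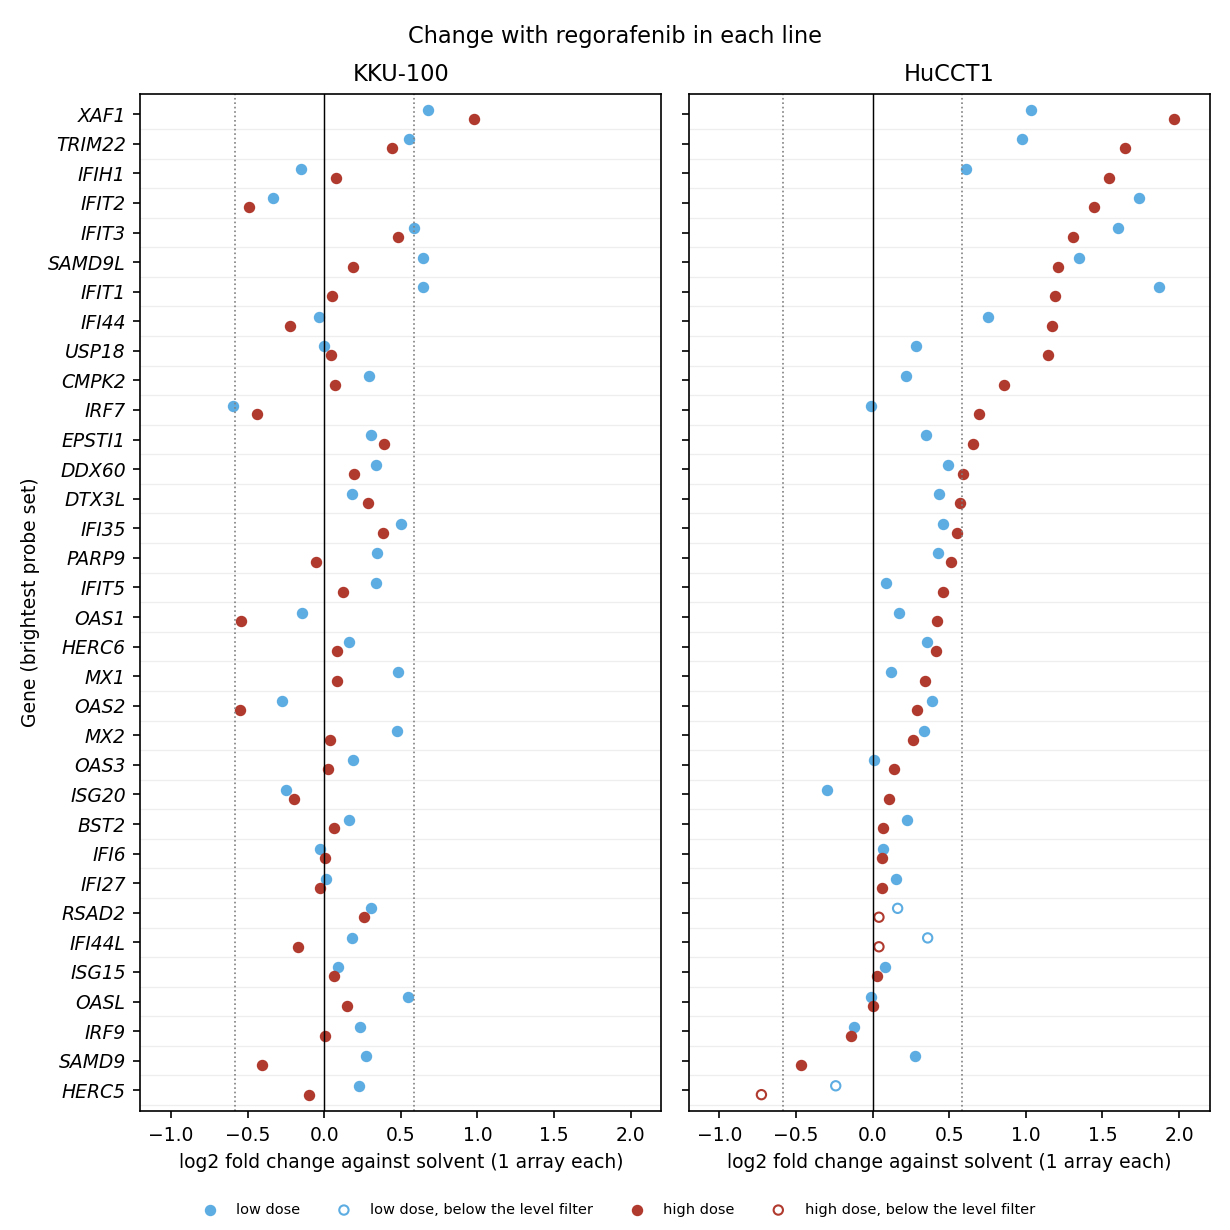
Log2 fold change of the low (blue) and high (red) dose array against the solvent array of the same line for each of the 34 genes, KKU-100 left and HuCCT1 right, without error bars because each condition has 1 array (open points for genes below the level filter in that line, dotted lines at 1.5-fold). XAF1 alone passes the right dotted line at 10 µM in KKU-100, and 13 genes do so in HuCCT1.

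The changes common to both lines were tested in the same limma fit. No member passed an adjusted p of 0.05 at 1 µM (0% of all genes) or at 10 µM (0%), the smallest adjusted p of a member being 0.403 and 0.149. At an unadjusted p under 0.05, 7 of 33 members were higher and 0 lower at 1 µM, against 6.1% and 5.13% of all genes. At 10 µM 7 were higher and 1, SAMD9, was lower, against 9.97% and 4.98%. A paired version of the methods' t-test called 0 members at either dose after Benjamini-Hochberg adjustment, and before it 4 higher at 1 µM (3.5% of all genes) and 1 higher and 1 lower at 10 µM (3.75% and 2.36%). For the line difference it called 22 members after adjustment (10.1% of all genes) and 30 before (23.6%). These unadjusted counts moved with single arrays. Without the HuCCT1 solvent array, the share of members higher was no larger than that of all genes at either dose. The median member then changed by a log2 of 0.18 at 1 µM and 0.12 at 10 µM, and the median gene by 0.06 and 0.05. Without the KKU-100 solvent array the median member changed by 0.41 and 0.38, and the median gene by 0.01 and 0.02. At 1 µM 12 members were higher without the KKU-100 solvent array (5.98% of all genes), 2 without the KKU-100 low dose array (1.9%) and 1 without the HuCCT1 low dose array (2.82%). At 10 µM 14 were higher without the KKU-100 solvent array (12.1%), 3 without the KKU-100 low dose array (6.95%), 4 without the HuCCT1 low dose array (6.99%) and 1 without the HuCCT1 high dose array (4.61%). The number lower at 10 µM was 3 without the HuCCT1 solvent array (8.18%), 1 without the KKU-100 solvent array (9.81%) and 0 without any other array. The smallest p of a member at the high dose was that of XAF1, with a log2 change of 1.47 (SE 0.24, unadjusted p 0.00132). The difference in response between the lines was tested with both doses taken as repeats of treatment. No member passed (0% of all genes), the smallest adjusted p being 0.594. At an unadjusted p under 0.05, 0 members responded more in KKU-100 (5.12% of all genes) and 3 responded less (2.95%), IFIT2 at -2.00 (SE 0.29), IFIT3 at -0.92 (SE 0.23) and IFI44 at -1.09 (SE 0.32). That count of 3 became 5 without the KKU-100 low dose array (1.61% of all genes) and 8 without the HuCCT1 low dose array (4.99%). The response of the median member was 0.26 lower on the log2 scale in KKU-100 than in HuCCT1, and that of the median gene 0.03 higher. The stronger calls in HuCCT1 are therefore not shown to differ from KKU-100 by this test, at 1 array per line and dose.

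The other genes of the pathway were counted by lists. Of 27 further interferon-stimulated genes, limma called 23 higher and 1 lower in KKU-100, SP100, against 27.6% higher and 26.1% lower of all genes tested. Against solvent, KKU-100 had 3 of the 27 higher and 1 lower at 1 µM (9.75% and 7.32% of all genes), then 3 higher and 2 lower at 10 µM (9.44% and 4.86%). HuCCT1 had 6 higher and 1 lower at 1 µM (3.68% and 3.32%), then 9 higher and 0 lower at 10 µM (8.23% and 6.44%). Of 13 genes of nucleic acid sensing, 5 were higher and 4 lower in KKU-100 than in HuCCT1, and of 7 STAT and IRF factors 3 were higher and 1 was lower. The 6 negative regulators had 0 higher and 3 lower in KKU-100. These shorter lists stand against the same 27.6% and 26.1% of all genes.

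Among these lists, 11 genes were higher by over 1.5-fold at each dose of HuCCT1, and the 5 of them with the largest changes at 10 µM were APOL6, IRF1, SOCS1, TLR3 and RTP4. Both doses share 1 solvent array, and the share of all genes past 1.5-fold at both was not computed. The count of 11 is therefore only a description. APOL6, an apolipoprotein L family member, had 283, 362 and 475 in KKU-100 and 99.4, 165 and 379 in HuCCT1. IRF1, a transcription factor that also drives antigen presentation genes, had 541, 601 and 1726 in KKU-100 and 242, 458 and 907 in HuCCT1. SOCS1, an inhibitor of the JAK kinases, had 123, 35.2 and 57.3 in KKU-100 and 21.0, 34.1 and 73.8 in HuCCT1, so its signal fell past 1.5-fold at both doses in KKU-100 and was higher at both in HuCCT1. TLR3, the endosomal sensor of double-stranded RNA, had 162, 212 and 213 in KKU-100 and 77.5, 149 and 249 in HuCCT1, and RTP4, a chaperone that responds to interferon, had 212, 379 and 279 in KKU-100 and 25.3, 89.0 and 70.5 in HuCCT1. SOCS3, a second inhibitor of cytokine signalling, went lower at both doses of KKU-100, with 355, 180 and 149 in KKU-100 and 711, 504 and 754 in HuCCT1.

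The ligands and receptors were looked at after their values were seen. IFNB1, the beta interferon, had 63.7, 49.6 and 96.9 in KKU-100 and 14.1, 14.7 and 24.3 in HuCCT1, a difference of 1.98 (SE 0.13, adjusted p 0.000206). The lambda interferon IFNL1 had 115, 54.6 and 132 in KKU-100 and 27.5, 20.5 and 27.2 in HuCCT1, a difference of 1.92 (SE 0.19, adjusted p 0.000887), and IFNL2, whose probe set may also take up RNA of its near-identical copies, had 127, 37.9 and 88.3 in KKU-100 and 11.4, 12.4 and 11.9 in HuCCT1. These ligands were above the array medians on all KKU-100 arrays and below them on all HuCCT1 arrays, so IFNB1 and IFNL1 passed the level filter through KKU-100 alone, and the size of their differences rests on HuCCT1 signals near background. IFNL1 and IFNL2 were lower past 1.5-fold at the low dose of KKU-100. IFNA1, IFNE, IFNK, IFNW1 and IFNG lay below the medians on all 6 arrays. Of the receptor and kinase genes, IFNAR1 and IFNAR2, the receptor of the alpha and beta interferons, were higher in KKU-100 by 0.87 (SE 0.13) and 0.66 (SE 0.13). IFNLR1, the receptor chain particular to the lambda interferons, had 16.9, 18.0 and 14.7 in KKU-100 and 205, 219 and 154 in HuCCT1, a difference of -3.53 (SE 0.12). It passed the filter through HuCCT1 alone, and its KKU-100 signals lay below the array medians. The other 6 of the 9 receptor and kinase genes were not called, JAK1 and TYK2 among them. The secreted proteins themselves were not measured.

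**Figure D4:**
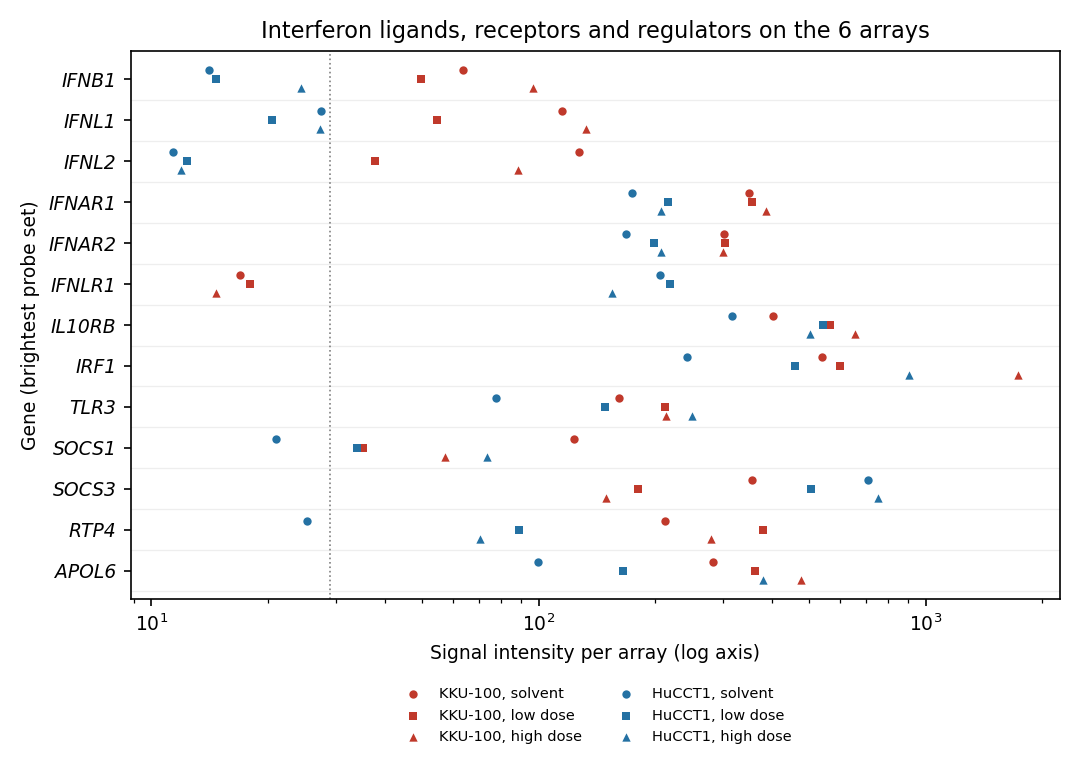
Signal intensity of 13 interferon ligands, receptors and regulators on each of the 6 arrays (log axis, KKU-100 in red and HuCCT1 in blue, 1 point per array, no error bars because each condition has 1 array, dotted line at a signal of 29 near the array medians). IFNB1, IFNL1 and IFNL2 lie at 37.9 to 132 in KKU-100 and 11.4 to 27.5 in HuCCT1, whereas IFNLR1 lies at 14.7 to 18.0 in KKU-100 and 154 to 219 in HuCCT1.

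Markers of other cells were set beside the line difference. The summed signal of the 5 leukocyte markers ran from 103 to 117 in KKU-100 and from 123 to 132 in HuCCT1, and that of the 3 markers of plasmacytoid dendritic cells, a main source of interferon, from 66.0 to 71.5 in KKU-100 and from 62.0 to 63.2 in HuCCT1. Of these markers, PTPRC and CLEC4C stayed near the floor of the arrays in both lines, PTPRC at 9.10 to 10.5 in KKU-100 and 9.43 to 10.3 in HuCCT1. The leukocyte marker CD3E, at 37.3 to 44.3, and the plasmacytoid marker IL3RA, at 30.9 to 39.3, lay above the array medians on all 6 arrays. The 3 endothelial markers summed to 92.7 to 105 in KKU-100 and 93.4 to 120 in HuCCT1. The 5 fibroblast markers summed to 770 to 1050 in KKU-100 and 247 to 324 in HuCCT1, which came from COL3A1, at 538 to 779 in KKU-100 and 6.52 to 8.63 in HuCCT1. The 6 biliary markers summed to 17890 to 23770 in KKU-100 and 37920 to 43560 in HuCCT1. The part of these marker differences, or of the unnamed transduced construct, in the interferon gene levels was not tested.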

How the data were processed

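RNA of KKU-100 and HuCCT1 cells was hybridised to 6 arrays. Each deposited file value is a linear signal intensity of 1 probe set. The submitters' processing notes name MAS5 for this step (version not given in the sources used here), and the authors describe normalization to log2 in GeneSpring. The signals were log2 transformed here without rescaling. Of 54675 probe sets, 62 controls were left out, and 41091 of the rest carried 1 gene symbol, 1801 several and 11721 none. Groups and doses came from the sample labels.

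A gene was represented by its probe set of highest mean log2 signal. The level filter was the 50th percentile. Tests used limma 3.58.1 in R 4.3.3 (lmFit, eBayes with a trend) with line and treatment as terms, or line, treated and their interaction, adjusted by Benjamini-Hochberg over 27307 probe sets, and were tested on simulated data. Fold changes of 1 array against 1 were called past 1.5-fold. Python 3.11.15 with pandas 2.3.3 and numpy 2.4.6 did the rest. The members, the gene lists, the markers and the rule for named genes were chosen with earlier results of these data known. By that rule, all 6 signals were given for a member called in a line or between lines or over 4-fold apart in the solvent arrays, which took in 33 members, and IFIT5 was added after its values were seen. Of the further lists, at most 6 genes were named, by the largest change at the high dose among genes that passed 1.5-fold in 1 direction at each dose of a line. Ligands, receptors and markers were named after their values were seen. Alternatives covered normalization, scaling, a floor, the filter, the choice of probe sets, the variance model, the test, the cutoff and each array left out. The number of arrays limits the precision.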

Additional observations from a re-analysis of the deposited data

Results flagged for a closer look

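For 5 of the interferon-stimulated genes, both regorafenib arrays of KKU-100 lay on one side of solvent and both of HuCCT1 on the other. The share of all genes with this pattern was not computed, so the count only describes the members. The response of KKU-100 minus that of HuCCT1, on the log2 scale and over both doses, was -2.00 for IFIT2, -1.09 for IFI44, -0.75 for OAS2, -0.64 for OAS1 and 0.25 for IRF9. The interaction fit of limma tested these differences and none passed an adjusted p of 0.05. IFIT2 had the smallest unadjusted p of all members (0.000808, adjusted p 0.594). In KKU-100 IFIT2 changed by -0.33 at 1 µM and -0.49 at 10 µM, and in HuCCT1 by 1.74 and 1.44. A second IFIT2 probe set had 282, 268 and 141 in KKU-100 and 52.5, 102 and 69.5 in HuCCT1 (solvent, 1 µM, 10 µM), the same directions. The second IFI44 probe set was below solvent on the treated arrays of both lines (changes of -0.59 and -1.46 in KKU-100, -0.05 and -0.33 in HuCCT1), so the opposite directions of IFI44 were seen with the brightest probe set alone. The dimmer OAS2 probe sets were not higher at the high dose of HuCCT1, with changes of -0.33 and -0.07, and the second OAS1 probe set kept the directions of the first. By their brightest probe sets, the OAS1, OAS2 and IRF9 changes were under 1.5-fold in both lines at both doses. A dimmer OAS2 probe set changed by -0.74 at 10 µM of KKU-100, past 1.5-fold.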

How the results depend on the processing

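The line difference kept 28 to 31 called members of 33 when any 1 array was left out, against 18.2% to 30.2% of all genes higher in KKU-100. For single members over the limma settings, it kept its direction and call in 468 cases. It was called no longer in 19 (BST2, DTX3L, MX2, PARP9 and SAMD9) and newly called in 1 (IFIT5 by the median over probe sets, 0.95). Single members were not followed under the methods' t-test, which called 22 of 33 after adjustment (10.1% of all genes). PARP9 rests on its brightest probe set, since the other one gave 0.12. For changes common to both lines, leaving out 1 array gave 0 to 2 called members at 1 µM, 2 without the HuCCT1 solvent array (3.27% of all genes were then higher), and 0 to 4 at 10 µM, 4 without the KKU-100 solvent array (1.67%), where the solvent level comes from the other line alone. The response difference cannot be estimated without a solvent array and was not run there. A 2-fold cutoff left 0 members higher and 0 lower at 1 µM of KKU-100 (2.29% and 2.70% of all genes), 0 higher at 10 µM of KKU-100 (2.42%) and 5 higher at 1 µM of HuCCT1 (0.962%). Centring each array on its median left 0 members lower at 1 µM of KKU-100 (7.09%). The median over the probe sets of a gene gave 0 members higher and 2 lower at 10 µM of KKU-100 (8.02% and 5.70%), and leaving out the multi-gene probe sets (suffix _s, _x or _a) gave 1 lower there (4.91%). Without a level filter 1 member, HERC5, was lower at 10 µM of HuCCT1 (4.55%). Without these multi-gene probe sets, the IFI44 change in HuCCT1 reversed to -0.045 (1 µM) and -0.325 (10 µM). The causes were not tested.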
